A study of Mus musculus with 24 samples.

Results

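The 48 genes described here act in the G2 phase of the cell cycle and in mitosis. They were taken by symbol from a fixed list of names, and the rows of the count files with these symbols were followed through all 24 libraries. All 48 were found among the 55414 gene identifiers of each file, and all 48 passed the filter on low counts that left 19616 genes for testing. The libraries hold RNA of LSK cells, which are bone marrow cells that lack lineage markers and carry Sca-1 and Kit. LSK cells include the hematopoietic stem cells and the multipotent progenitors. They were sorted from lineage-depleted marrow of femurs, tibiae and hips of mouse pups on day 21 after birth. The mothers were C57BL/6J mice that ate a Western diet (TD.88137) or regular chow (2018SX), starting before mating and continuing until the end of lactation. The groups were female pups of Western-diet mothers, female pups of control mothers, male pups of Western-diet mothers and male pups of control mothers, with 6 libraries each. The labels put 2 libraries of every group in each of 3 batches and do not say what a batch shares. Mothers and litters are not named, littermates may be among the pups, and p-values here speak only of spread between libraries.

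A dividing cell copies its DNA in S phase, passes through G2 and enters mitosis when cyclin B with its kinase CDK1 becomes active. Kinases of the Aurora, Polo and NIMA families then separate the centrosomes and build the spindle, kinetochores tie the chromosomes to it, and the spindle checkpoint holds back the anaphase-promoting complex (APC/C) until all are attached. The transcripts of many of these genes are made late in the cycle, and in the marrow the most primitive stem cells divide rarely while multipotent progenitors divide often. In bulk RNA a lower level of such transcripts can mean fewer cells in G2 or mitosis or less of the RNA in each, and these cannot be told apart here.

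Promoters of late cell cycle genes are known to hold a pair of short elements, the cell cycle genes homology region (CHR), bound by the MuvB complexes, and CCAAT boxes, bound by NF-Y. RefSeq promoter windows (mouse build GRCm38.p6, 250 bases before to 50 bases after the start) were at hand for 40 of the 48 genes, in 43 windows. The windows of the gene with the one diet call (Nek2), of 3 genes that differed most clearly between batches (Cdc20, Aurka, Ccnb1) and of the central mitotic kinase (Cdk1) are shown 5′ to 3′ on the strand of the gene. Capitals mark matches to TTTGAA or TTTAAA, which are forms of the CHR, and to CCAAT or its reverse complement ATTGG.
Nek2, chr1:191821223-191821522, plus strand: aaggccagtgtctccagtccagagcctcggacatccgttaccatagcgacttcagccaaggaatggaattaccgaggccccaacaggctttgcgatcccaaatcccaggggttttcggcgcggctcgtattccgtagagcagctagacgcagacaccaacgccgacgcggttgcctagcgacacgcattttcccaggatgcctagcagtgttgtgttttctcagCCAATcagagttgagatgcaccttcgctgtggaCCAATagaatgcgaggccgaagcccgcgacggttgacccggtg
Cdc20, chr4:118437294-118437593, minus strand: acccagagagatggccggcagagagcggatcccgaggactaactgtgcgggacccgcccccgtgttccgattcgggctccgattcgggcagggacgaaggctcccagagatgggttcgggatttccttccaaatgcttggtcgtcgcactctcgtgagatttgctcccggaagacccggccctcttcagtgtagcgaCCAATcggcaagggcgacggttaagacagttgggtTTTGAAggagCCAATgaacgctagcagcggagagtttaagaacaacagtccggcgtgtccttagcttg
Aurka, chr2:172370521-172370820, minus strand: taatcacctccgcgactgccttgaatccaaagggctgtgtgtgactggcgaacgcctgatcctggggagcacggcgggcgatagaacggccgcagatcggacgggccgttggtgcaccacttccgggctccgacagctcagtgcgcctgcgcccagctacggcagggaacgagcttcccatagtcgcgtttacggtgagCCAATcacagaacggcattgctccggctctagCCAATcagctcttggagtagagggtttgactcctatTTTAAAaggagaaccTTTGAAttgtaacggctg
Ccnb1, chr13:100786437-100786736, minus strand: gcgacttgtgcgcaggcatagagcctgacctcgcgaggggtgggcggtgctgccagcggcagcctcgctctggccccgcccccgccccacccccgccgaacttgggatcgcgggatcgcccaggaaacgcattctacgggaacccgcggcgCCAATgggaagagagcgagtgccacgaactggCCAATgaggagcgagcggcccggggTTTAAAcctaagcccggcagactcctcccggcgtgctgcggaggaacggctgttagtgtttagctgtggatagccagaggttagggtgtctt
Cdk1, chr10:69352863-69353162, minus strand: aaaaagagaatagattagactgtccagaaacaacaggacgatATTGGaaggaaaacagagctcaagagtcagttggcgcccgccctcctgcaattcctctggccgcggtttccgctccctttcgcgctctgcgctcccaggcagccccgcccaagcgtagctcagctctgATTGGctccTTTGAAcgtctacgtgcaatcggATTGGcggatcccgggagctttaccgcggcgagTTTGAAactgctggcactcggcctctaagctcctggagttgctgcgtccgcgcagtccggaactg

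In Cdc20 the TTTGAA lay from 18 to 13 bases before the start, shown as positions -18 to -13, between CCAAT boxes that began at positions -53 and -8. In Cdk1 it was found at positions -71 to -66 and again at -15 to -10. Ccnb1 held the TTTAAA form at positions -42 to -37 after a pair of CCAAT boxes, and Aurka held both forms after the start. The Nek2 window held 2 CCAAT boxes and no match to any of the CHR forms searched, which says only that these letters are not in this window.

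Across the 43 windows TTTGAA was present in 74.4%, against 17.9% of the 32851 promoter windows of all genes, with both strands searched. CCAAT was present in 79.1% of the members' windows and in 37.4% of all windows. Both occurred in 65.1% of the members' windows and in 7.0% of all windows. Of the 32 members' windows with TTTGAA, 29 had one within 50 bases of the start. These were 67.4% of the members' windows, against 4.9% of all windows. The other forms were less frequent: TTTAAA, in 20.9% against 13.2%, and TTCGAA, in 9.3% against 1.6%. TTTAAA and TTCGAA read the same on both strands, and matches to each motif were counted whether or not they shared bases with another. The members were chosen for their late cell cycle role and their windows are among those of all genes, so these shares are a description and carry no test.

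**Figure D1:**
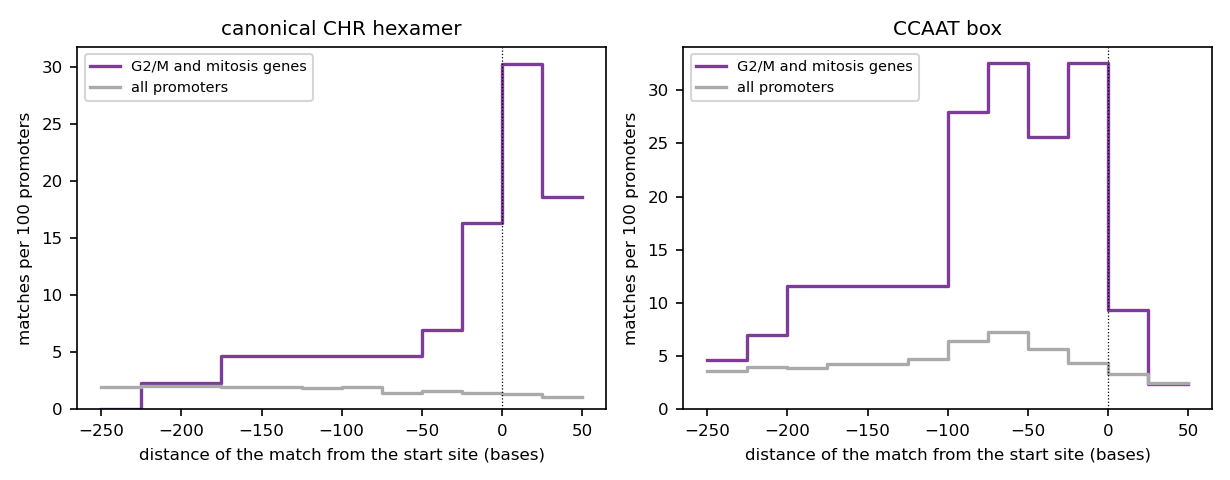
Matches per 100 promoter windows (y axis) to TTTGAA, the canonical CHR hexamer (left), and to CCAAT (right), in bins of 25 bases by distance from the start site (x axis, bases), for the 43 windows of the G2/M and mitosis genes (purple) and the 32851 windows of all genes (grey). The purple line for TTTGAA peaks at 30.2 matches per 100 windows in the bin from 0 to 25, and that for CCAAT is highest between -100 and 0.

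Each library held between 38057263 and 51581968 counts in genes. The least counted member, Cdc25c, had at least 896 counts in every library and the most counted, Top2a, had up to 34556, so counting error was small beside the spread between libraries. Levels are given as CPM, which are counts scaled to a common library size after TMM correction. The LSK label was checked against 7 markers, and each of them was detected in every library. Kit was at 267 to 883 CPM and Cd34 at 227 to 953 CPM, while Ly6a, which encodes Sca-1, was low at 2.14 to 39.9 CPM. Of 25 markers of other cell types, which the sort should remove, 23 were detected in every library, among them the hemoglobin genes. The neutrophil gene S100a8 was at 6.33 to 97.5 CPM, the macrophage gene C1qb at 41.9 to 353.6 CPM and the B cell gene Cd79b at 30.3 to 104.6 CPM. The neutrophil genes Ly6g and Ltf were the exceptions, at 0 in 20 libraries and in 1 library. Female control libraries 5 and 6, both of batch 3, are known from earlier work on these data to stand apart, and the counts of calls for diet in females and for batch, and most genes named for diet in females, are also given without them.

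Every one of the 48 genes had a mean level above the median of all tested genes, and their median mean level was 149 CPM, against 7.56 CPM over all tested genes. Together they made up 7011 to 11207 CPM of a library. Levels between genes were compared per kilobase of the principal transcript. On that scale they ran from 10.4 CPM per kilobase for Cdc25b, a phosphatase that activates CDK1, to 348 CPM per kilobase for Cks1b, a small subunit of cyclin-dependent kinases.

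Among the genes of mitotic entry Cks1b was followed by Cks2 at 206 and Ccnb2 at 183 CPM per kilobase, and the kinase Cdk1 itself was at 39.9. Of the mitotic kinases and their spindle partners Tacc3, a microtubule-binding partner of Aurora A, stood highest at 94.0 CPM per kilobase, and the kinase Nek2, which releases the linker between centrosomes, stood lowest at 22.1. The chromosomal passenger complex, which corrects wrong attachments, was led by Birc5 (survivin) at 256 CPM per kilobase, with its kinase Aurkb at 103 and its scaffold Incenp at 53.2. These are means over 24 libraries, and within a group the highest library of a gene was often well above the lowest.

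Of the spindle checkpoint and APC/C genes Bub3, a checkpoint protein of the kinetochore, had 199 CPM per kilobase and Ube2c, the ubiquitin-conjugating enzyme of the APC/C, had 196. Cenpa, the histone variant of centromeres, led the centromere and kinetochore genes at 237 CPM per kilobase. Kif22, a motor that pushes chromosome arms, led the kinesin and spindle genes at 108. Racgap1, part of the central spindle complex, led the genes of the midzone and cytokinesis at 39.0, just above Prc1 at 38.4, and Top2a, the topoisomerase that untangles sister chromatids, led those of chromosome structure at 121. Kif4, a chromosome-bound kinesin, was the only member on chromosome X, with 12.6 CPM per kilobase.

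The members were steady next to other genes. The median SD of log2 CPM over the 24 libraries was 0.249 for the members and 0.433 for all tested genes, which are mostly lower in level and so counted less precisely. The ratio of the highest to the lowest library was 1.48 for Kif23, a motor of the central spindle, and 4.53 for Ccna2, cyclin A2. The members also varied together: the first principal component held 49.7% of their variance over libraries and 47.0% of that of 48 G1/S and replication genes. It held 37.95% of that of 51 other mitosis genes and 17.5% of that of all tested genes, which were not matched to the members in level. After the means of group and batch were taken out, the share was 36% for the members and 21.1% for all tested genes. It was 37.6% for the G1/S genes and 37.6% for the other mitosis genes. These shares describe 24 libraries that have depth and sort in common.

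**Figure D2:**
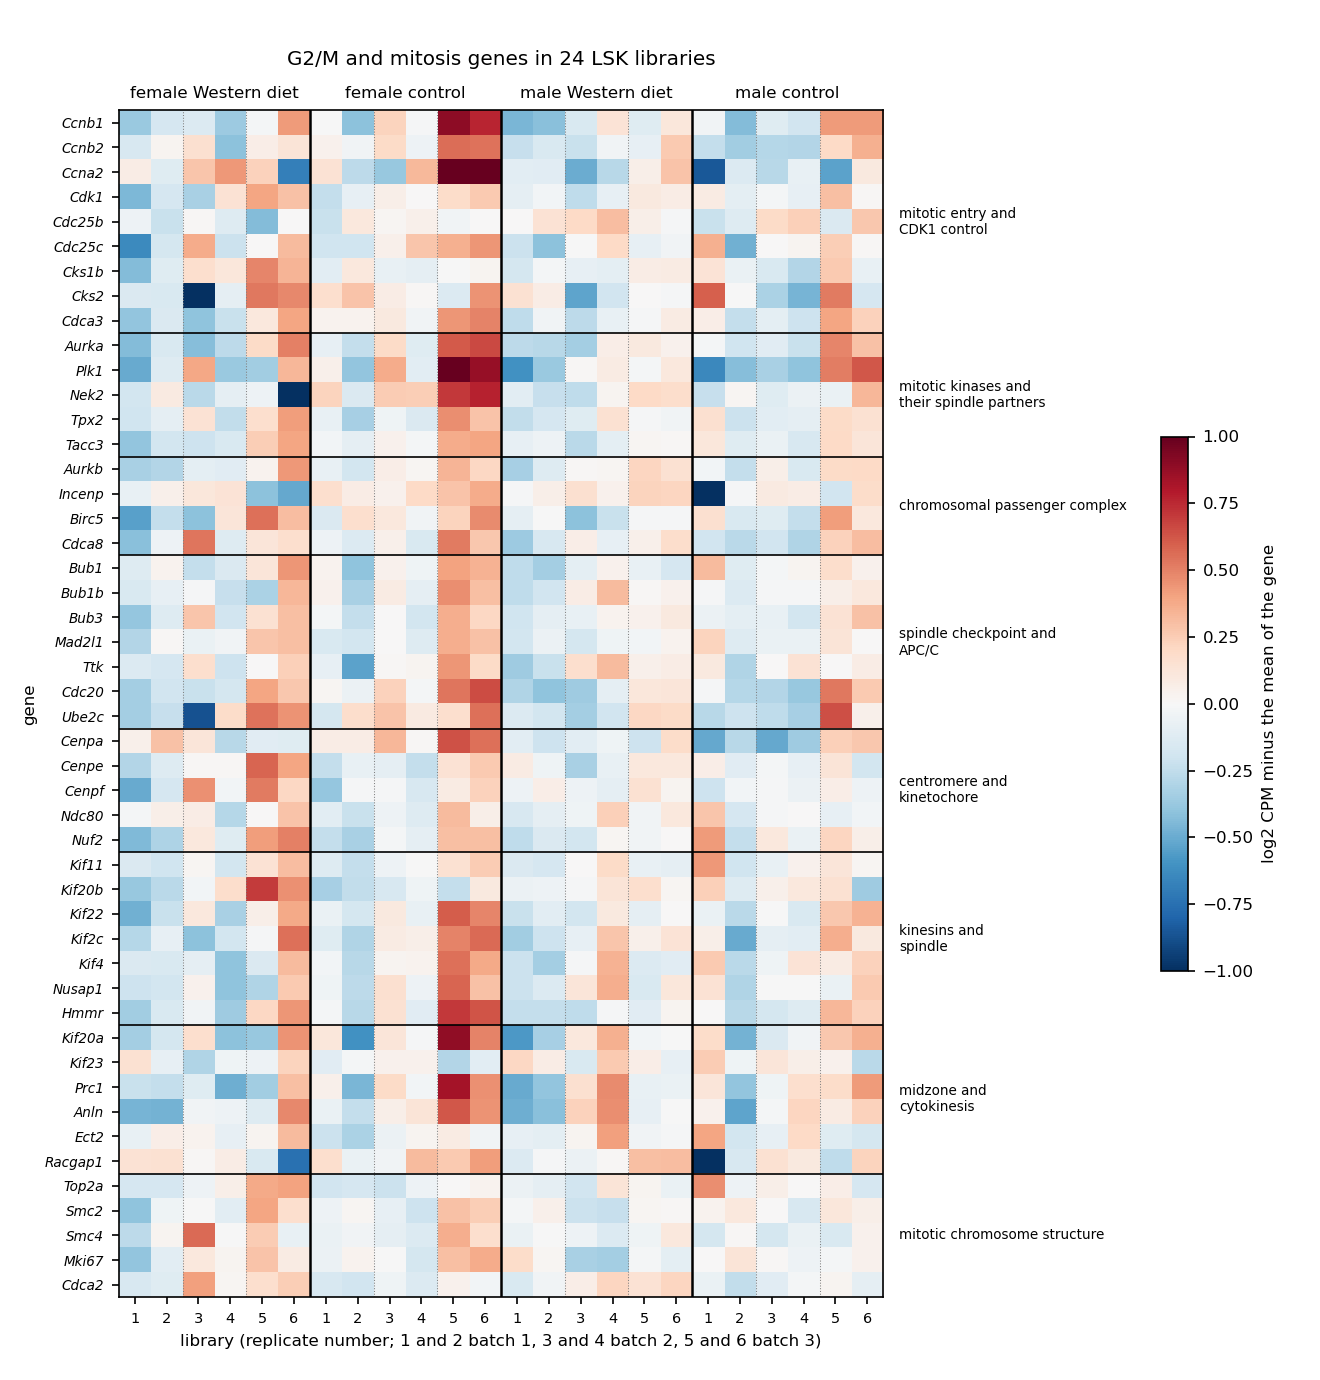
Level of each of the 48 genes (rows, grouped by role) in each of the 24 libraries (columns, in blocks of 6 by group), as log2 CPM minus the mean of that gene; red is above the mean and blue below, with the colours cut at 1 and -1. Columns 5 and 6 of the female control block are red for most genes, and in all 4 blocks the batch 3 columns are redder than those of batch 1.

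In female pups maternal Western diet went with a lower level of 1 of the 48 genes, the centrosome kinase Nek2, which was 1.49-fold lower. None of the 48 was called higher, and the share called compares with 5.42% of all tested genes called in either direction, 3.22% called lower and 2.20% called higher (edgeR quasi-likelihood test, Benjamini-Hochberg adjusted p under 0.05). The log2 fold changes were negative for 35 genes and positive for 13, with a median of -0.15, against a median of 0.03 over all tested genes. Without adjustment 14 of the 48 genes had p under 0.05, beside 21.3% of all tested genes. In no gene were the female groups free of overlap, while 0.714% of all tested genes were lower and 0.469% higher without overlap.

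The gene that was called is Nek2. Nek2 had 60.9, 73.4, 57.2, 64.9, 66.7 and 29.4 CPM in female Western-diet libraries 1 to 6, against 80.8, 62.7, 82.4, 81.9, 112.8 and 117.8 CPM in female control libraries 1 to 6. The groups overlapped only through female control library 2, the lowest of its group, while female Western-diet library 6 lay far below all others. The mean was 58.8 ± 15.4 CPM in female Western-diet pups and 89.7 ± 21.2 CPM in female control pups (SD, n = 6 each). The log2 fold change was -0.58 ± 0.17 (SE), a 1.49-fold lower level, with an adjusted p of 0.0444 in edgeR.

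The call on Nek2 rested on few libraries. Within batches the difference of mean log2 CPM, Western diet minus control, was -0.09 in batch 1, -0.43 in batch 2 and -1.38 in batch 3. Without female control libraries 5 and 6 the log2 fold change was -0.41 (edgeR adjusted p = 0.365), and without batch 3 it was -0.26 (adjusted p = 0.384). Leaving out female Western-diet library 6 kept the call, with a log2 fold change of -0.40 and an adjusted p of 0.0408. Nek2 shares 6.6% of its exon bases with an antisense gene, Gm38037, and the library kit does not mark strand.

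The 4 genes next in order of p did not pass the test. Cdca3, which promotes mitotic entry, had 76.2 to 132.0 CPM with a median of 88.8 in female Western-diet libraries, against 98.2 to 141.7 CPM with a median of 105.3 in female control libraries. Its log2 fold change was -0.28 ± 0.09 (SE) with an edgeR adjusted p of 0.0578, the groups overlapped, and without female control libraries 5 and 6 it was -0.27 (adjusted p = 0.301). Cdc20, the activator of the APC/C in mitosis, had 153.9 to 256.1 CPM with a median of 171.3 in female Western-diet libraries, against 187.3 to 306.0 CPM with a median of 212.7 in female control libraries. Its log2 fold change was -0.27 ± 0.08 (SE) with an edgeR adjusted p of 0.0597. For Cdc20 the difference was much alike in the 3 batches, at -0.25, -0.31 and -0.26, and without female control libraries 5 and 6 the log2 fold change was -0.28 (adjusted p = 0.263).

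Ccnb1, cyclin B1, had 203.3 to 353.0 CPM with a median of 236.7 in female Western-diet libraries, against 197.7 to 489.6 CPM with a median of 285.5 in female control libraries. Its log2 fold change was -0.35 ± 0.12 (SE) with an edgeR adjusted p of 0.0896, and it was -0.21 without female control libraries 5 and 6, which were its highest. Aurka, the Aurora kinase of centrosomes and spindle poles, had 96.7 to 185.3 CPM with a median of 113.4 in female Western-diet libraries, against 110.7 to 206.5 CPM with a median of 136.4 in female control libraries. Its log2 fold change was -0.27 ± 0.10 (SE) with an edgeR adjusted p of 0.127, and it was -0.20 without female control libraries 5 and 6 (adjusted p = 0.522). In both genes the ranges of the groups overlapped widely.

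**Figure D3:**
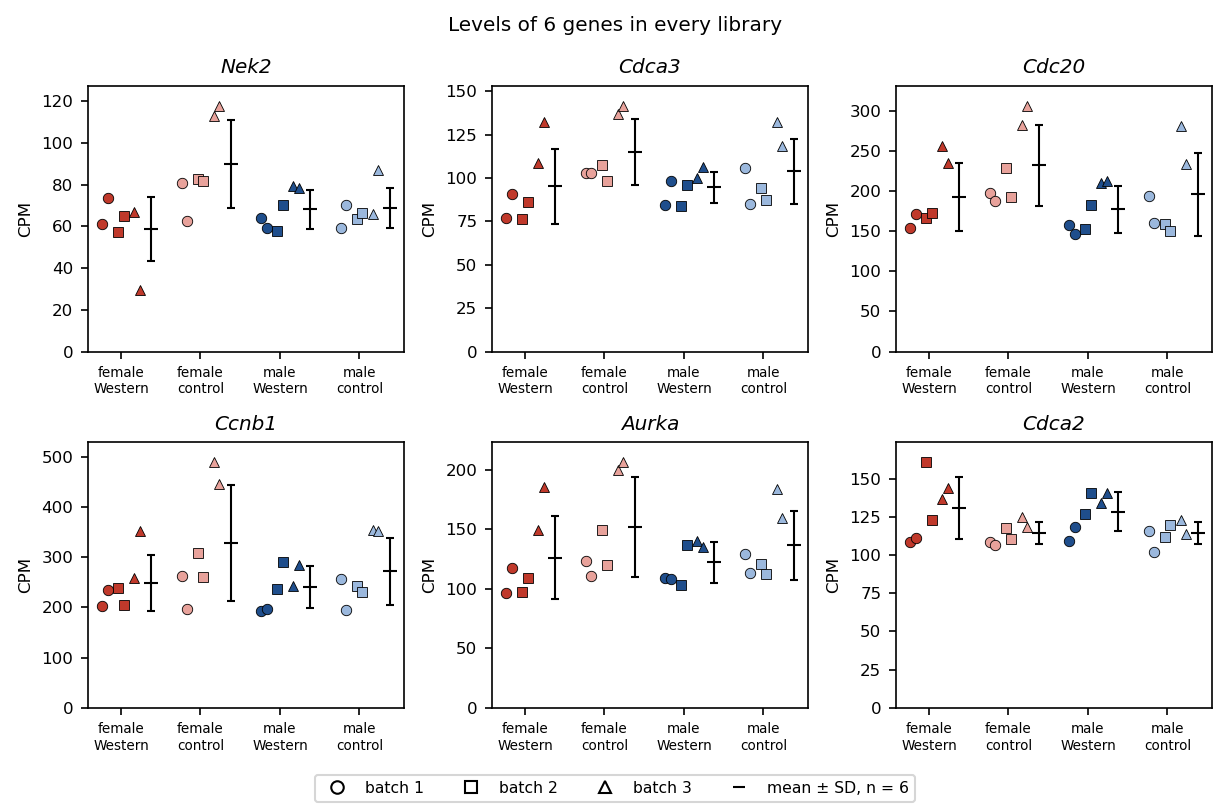
CPM of 6 genes in every library (y axis from 0) by group (x axis), with the marker showing the batch and black bars showing the mean ± SD of 6 libraries. Female Western-diet library 6 is the low point of Nek2 at 29.4 CPM, and the triangles of batch 3 are the top points of Cdc20 and Ccnb1 in the female control group.

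By role, the female medians ranged from -0.27 to 0.07. The median log2 fold change was -0.27 over 5 mitotic kinases and spindle partners, with 4 of 5 negative, and -0.19 over 9 genes of mitotic entry, with 8 of 9 negative. It was -0.25 over 6 genes of midzone and cytokinesis and -0.21 over 7 kinesin and spindle genes, among them Kif4 at -0.21 (Kif4 adjusted p = 0.347). The 7 spindle checkpoint and APC/C genes had a median of -0.05, the 4 chromosomal passenger genes -0.13, the 5 centromere and kinetochore genes 0.05 and the 5 genes of chromosome structure 0.07. The most negative values after Nek2 were those of the Polo kinase Plk1 at -0.44 ± 0.18 (SE, adjusted p = 0.158 in edgeR) and of Prc1, which bundles midzone microtubules, at -0.36. Within batches the difference of mean log2 CPM of Plk1 was -0.14 in batch 1, -0.12 in batch 2 and -1.09 in batch 3, whose only female controls are libraries 5 and 6. With that pair left out the log2 fold change of Plk1 was -0.23 (adjusted p = 0.667 in edgeR) and that of Prc1 was -0.18 (adjusted p = 0.704). The most positive value was that of the kinesin Kif20b at 0.29 (adjusted p = 0.204 in edgeR), and 0.25 without the pair. The role medians without the pair were -0.20 for the kinases and spindle partners, -0.11 for mitotic entry, -0.13 for midzone and cytokinesis, -0.11 for kinesins and spindle, 0.03 for the checkpoint and APC/C genes, -0.16 for the passenger genes, 0.13 for centromere and kinetochore and 0.16 for chromosome structure.

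The SE came from a fit with 1 diet effect over all batches that treats libraries as independent. In that fit the SE of the 48 log2 fold changes in females ran from 0.08 to 0.23. For none of the genes did 2 SE on either side reach a change beyond 1 on the log2 scale. This does not bound the difference in a single batch. For Ccna2 the difference of mean log2 CPM was 0.03 in batch 1, 0.38 in batch 2 and -1.41 in batch 3. In batch 3 it was -1.38 for Nek2 and -1.09 for Plk1. Within batch 3 alone, 5 of 48 genes were lower in female Western-diet libraries, namely Ccna2, Plk1, Nek2, Incenp and Cenpa. Of the 19456 genes tested there edgeR called 14.0% in either direction, and 1571 genes lower. Within batch 1 and within batch 2 it called none of the 48, beside 0.0% and 0.109% of the genes tested. The median difference over the 48 genes was -0.08 in batch 1, -0.12 in batch 2 and -0.19 in batch 3. Without female control libraries 5 and 6 no member was called, beside 0.763% of all tested genes, and the median log2 fold change was -0.08.

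In males edgeR called none of the 48 genes for maternal diet, beside 0.0102% of all tested genes. DESeq2 and limma-voom also called none, beside 0.505% and 0.571% of all tested genes. Without adjustment 1 member had p under 0.05, beside 8.45% of all tested genes. The log2 fold changes ran from -0.22 to 0.25 and had a median of -0.03, with 31 negative and 17 positive. None of the 48 had male groups without overlap, against 0.291% of all tested genes lower and 0.209% higher without overlap. The median was 0.01 without male control library 1, and within batches the median difference was -0.08, 0.04 and -0.14 in batches 1, 2 and 3.

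The male gene with the smallest p was Cdca2, which directs protein phosphatase 1 to chromosomes as mitosis ends. Cdca2 had 109.4 to 140.8 CPM with a median of 130.7 in male Western-diet libraries, against 102.3 to 123.3 CPM with a median of 114.8 in male control libraries. The ranges overlapped, and the log2 fold change was 0.16 ± 0.08 (SE) with an edgeR adjusted p of 0.590. The same gene had a log2 fold change of 0.18 in females.

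The checkpoint kinase Bub1 had 65.5 to 85.3 CPM with a median of 75.7 in male Western-diet libraries, against 76.3 to 103.1 CPM with a median of 84.9 in male control libraries, a log2 fold change of -0.22 (edgeR adjusted p = 0.605). Nuf2, a subunit of the microtubule-binding NDC80 complex, had 66.8 to 80.6 CPM with a median of 74.9 in male Western-diet libraries, against 67.6 to 106.6 CPM with a median of 84.2 in male control libraries, a log2 fold change of -0.20 (edgeR adjusted p = 0.673). Incenp had 167.2 to 196.9 CPM with a median of 181.6 in male Western-diet libraries, against 69.0 to 190.8 CPM with a median of 172.6 in male control libraries. For Incenp the low end of the controls was a single library, male control library 1, and the log2 fold change of 0.25 (edgeR adjusted p = 0.705) was 0.09 without it. Cdc20 had 146.9 to 212.2 CPM with a median of 170.1 in male Western-diet libraries, against 149.6 to 280.3 CPM with a median of 176.4 in male control libraries, a log2 fold change of -0.13 (edgeR adjusted p = 0.711).

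**Figure D4:**
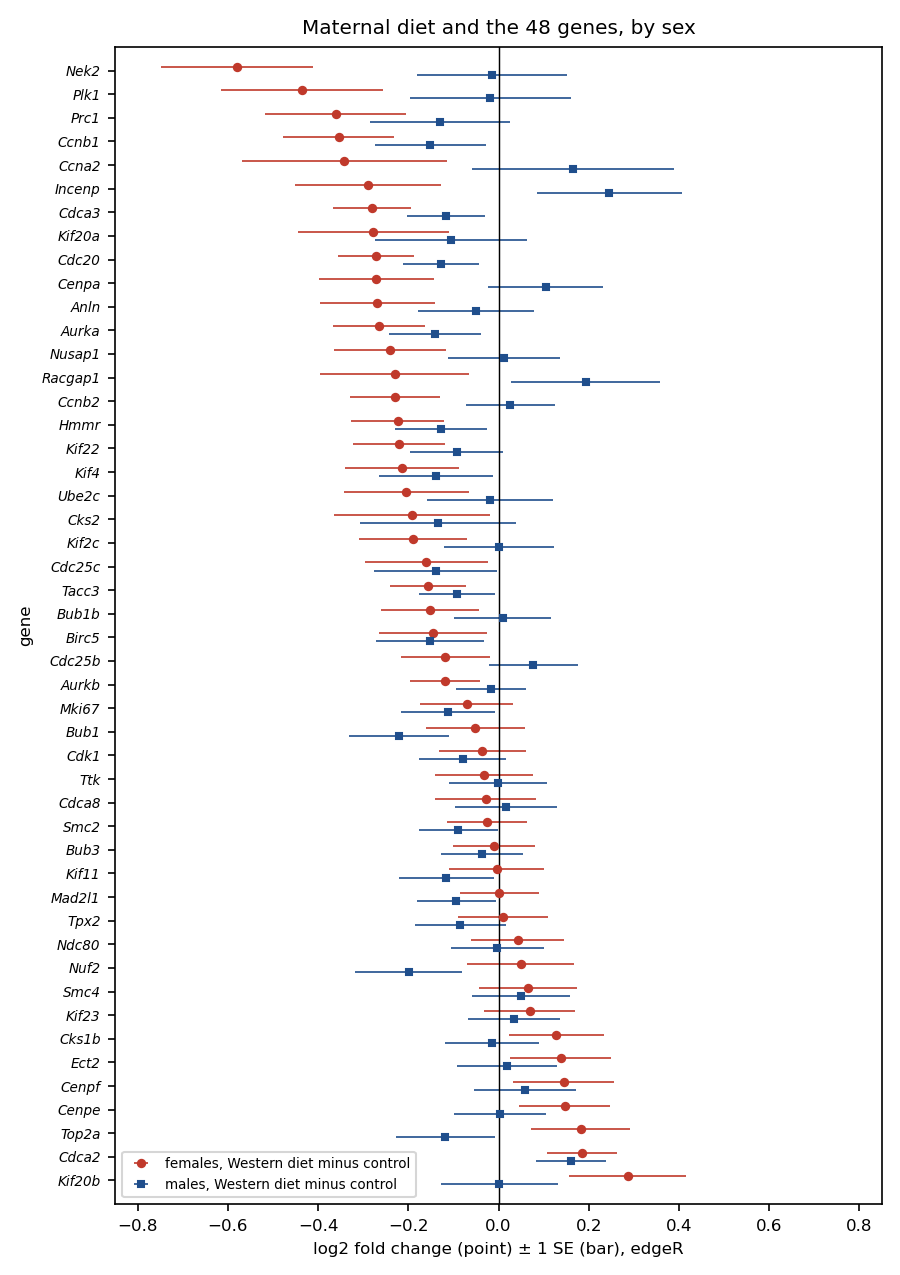
Log2 fold change, Western diet minus control, of each of the 48 genes in females (red circles) and in males (blue squares), with bars of 1 SE from edgeR; genes run down the page from the most negative to the most positive value in females. Nek2 lies farthest left in females at -0.58 and at -0.02 in males.

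Averaged over the sexes, edgeR called none of the 48 genes, beside 5.70% of all tested genes, while 10 had an unadjusted p under 0.05, beside 20.6% of all tested genes. DESeq2 called 3 of the 48, beside 9.09% of all tested genes, and limma-voom also 3, beside 7.67%. The log2 fold changes were negative for 38 genes, with a median of -0.08. Cdc20 came nearest at -0.20 ± 0.06 (SE, adjusted p = 0.0501 in edgeR), followed by Cdca3 at -0.20 (adjusted p = 0.0562), Cdca2 at 0.17 (adjusted p = 0.0635), Ccnb1 at -0.25 (adjusted p = 0.0872) and Aurka at -0.20 (adjusted p = 0.0965). These values sit so near the threshold that several alternatives move them across it, and without female control libraries 5 and 6 the adjusted p of Cdc20 was 0.116.

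The difference between the sexes in their response to diet was tested as an interaction. None of the 48 genes was called for it, beside 0.0% of all tested genes, and 3 of the 48 had an unadjusted p under 0.05, beside 8.32% of all tested genes. DESeq2 also called none of the 48, beside 0.0204% of all tested genes, and so did limma-voom, beside 0.0%. The smallest p was that of Nek2, whose log2 fold change was higher in males by 0.56 ± 0.24 (SE, adjusted p = 0.589 in edgeR). Its male levels were 57.9 to 79.3 CPM with a median of 67.2 in Western-diet libraries and 59.1 to 87.2 CPM with a median of 66.1 in control libraries. The call of Nek2 in females alone is therefore not shown to differ from males.

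Erythroid markers were counted beside these results. The summed level of 7 erythroid markers was 626 to 2721 CPM with a median of 1566 in female Western-diet libraries, against 1126 to 8403 CPM with a median of 2458 in female control libraries. It was 852 to 3067 CPM with a median of 1946 in male Western-diet libraries, against 2423 to 6701 CPM with a median of 4845 in male control libraries. All 7 markers were detected in every library. The summed LSK markers had medians of 1379 CPM in female Western-diet and 1381 CPM in female control libraries, and 1458 CPM in male Western-diet and 1594 CPM in male control libraries. Within the female controls libraries 5 and 6 were low, at 960 and 931 CPM, and female Western-diet library 5 was at 960 CPM. With each LSK marker centred on its own mean of log2 CPM, the medians of that control pair were -1.23 and -0.94, the lowest of the 24 libraries. Whether erythroid cells or the level of LSK markers had a part in the values of the mitosis genes was not tested.

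Sex made little difference that passed the test. Among Western-diet pups edgeR called none of the 48 genes between males and females, beside 0.0816% of all tested genes. Of the 48, 1 had an unadjusted p under 0.05, beside 6.75% of all tested genes. DESeq2 called none, beside 0.184% of all tested genes, and limma-voom none, beside 0.112%. Cdc25b had the smallest p, with 31.7 to 39.8 CPM and a median of 34.3 in male Western-diet libraries, against 23.8 to 32.2 CPM and a median of 30.1 in female Western-diet libraries. Its ranges overlapped slightly, and the log2 fold change, male minus female, was 0.25 ± 0.10 (SE, adjusted p = 0.717 in edgeR).

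Among control pups edgeR again called none of the 48, beside 0.112% of all tested genes, and 6 had an unadjusted p under 0.05, beside 13.2% of all tested genes. DESeq2 called 1 member, beside 1.41% of all tested genes, and limma-voom 2, beside 0.688%. The log2 fold changes, male minus female, were negative for 36 genes with a median of -0.09, and the median was -0.01 without female control libraries 5 and 6. Cenpa had 238.3 to 409.8 CPM with a median of 272.9 in male control libraries, against 342.7 to 527.8 CPM with a median of 393.2 in female control libraries. Its ranges overlapped, and the log2 fold change of -0.46 ± 0.13 (SE) had an edgeR adjusted p of 0.136. Libraries 5 and 6 were the highest female controls for Cenpa, and without them the log2 fold change was -0.39 (edgeR adjusted p = 0.981). Kif4, on chromosome X, had 51.4 to 74.3 CPM with a median of 66.8 in male control libraries, against 51.0 to 90.3 CPM with a median of 63.0 in female control libraries, a log2 fold change of -0.04 (edgeR adjusted p = 0.915).

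More of these genes were called for the labelled batch than for diet or sex. Of the 48 genes 28 (58.3%) were called for batch in edgeR, beside 24.2% of all tested genes. All 28 had their highest mean in batch 3, which held for 33.9% of all the genes called for batch; of all tested genes 8.22% were called and highest in batch 3. The mean log2 CPM was higher in batch 3 than in batch 1 for 47 of 48 genes, with a median difference of 0.32, against -0.03 over all tested genes. Kif23 was the exception at -0.12.

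The library medians of the 48 genes, each gene centred on its own mean of log2 CPM, ran from -0.29 to 0.05 in batch 1, from -0.13 to 0.05 in batch 2 and from 0.01 to 0.37 in batch 3. Female Western-diet library 1 was lowest at -0.29, and female control libraries 5 and 6 were highest at 0.37 and 0.36. The direction did not rest on that pair: batch 3 minus batch 1 had a median of 0.43 in female Western-diet, 0.47 in female control, 0.18 in male Western-diet and 0.20 in male control libraries. It was positive for 42, 46, 43 and 39 of the 48 genes in those groups. Without female control libraries 5 and 6, 18 of the 48 genes were called for batch, beside 14.6% of all tested genes.

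Cdc20 had the smallest p for batch. Cdc20 had 146.9 to 197.0 CPM with a median of 165.2 in batch 1, 149.6 to 228.3 CPM with a median of 169.3 in batch 2 and 210.4 to 306.0 CPM with a median of 245.6 in batch 3 (8 libraries each, edgeR adjusted p = 1.03e-05). No batch 3 library overlapped batch 1 for Cdc20. Aurka had 96.7 to 129.1 CPM with a median of 112.2 in batch 1, 97.3 to 149.6 CPM with a median of 116.2 in batch 2 and 134.9 to 206.5 CPM with a median of 171.8 in batch 3 (edgeR adjusted p = 7.10e-05). Ccnb1 had 192.1 to 263.1 CPM with a median of 200.5 in batch 1, 204.5 to 307.8 CPM with a median of 240.7 in batch 2 and 242.0 to 489.6 CPM with a median of 352.9 in batch 3 (edgeR adjusted p = 0.000318). For Ccnb1 the ranges of batches 1 and 3 overlapped.

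Aurka, Aurkb, Bub3, Cdc20 and Cdca8, which encodes the passenger protein borealin, were higher in all 8 batch 3 libraries than in all 8 batch 1 libraries, 5 of 48 beside 0.479% of all tested genes. Against batch 2 this held for 1 member, the condensin subunit Smc2, beside 0.133% of all tested genes. By role, the median difference between batches 3 and 1 was 0.39 for the passenger complex, 0.38 for mitotic entry, 0.35 for the kinases and spindle partners and 0.35 for the checkpoint and APC/C genes. It was smallest for chromosome structure, at 0.16, and 2 of the 5 genes there were called for batch. The largest single difference was that of Plk1 at 0.80, with 0.31 in female Western-diet, 1.26 in female control, 0.53 in male Western-diet and 1.10 in male control libraries.

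**Figure D5:**
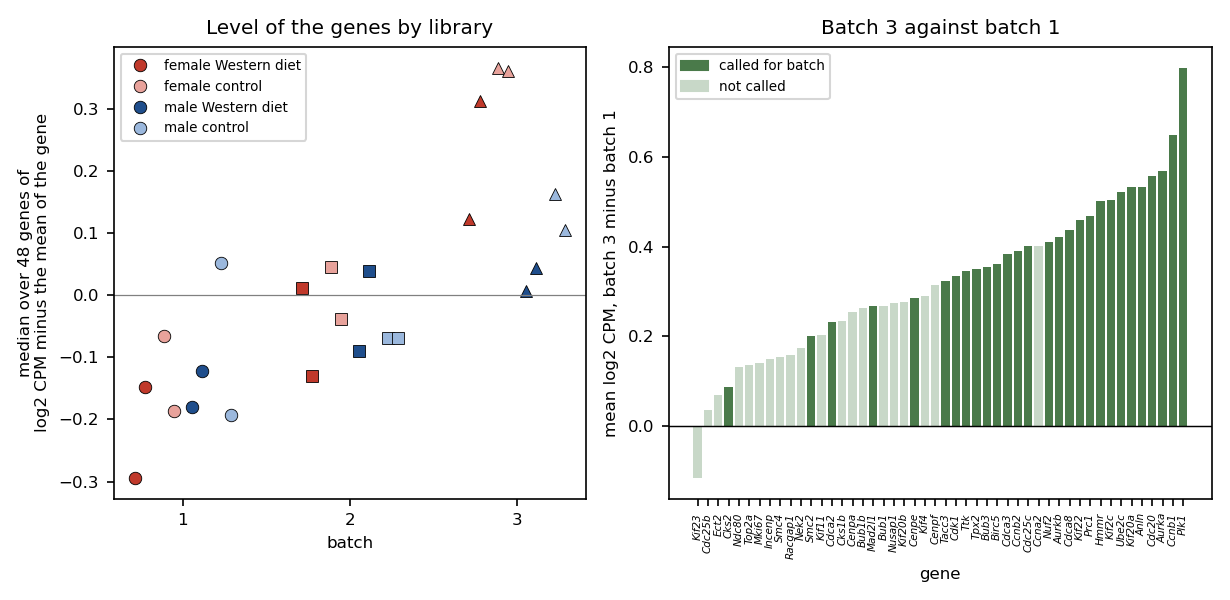
Left, the median over the 48 genes of log2 CPM minus the mean of the gene (y axis) for each library by batch (x axis), coloured by group. Right, mean log2 CPM in batch 3 minus batch 1 (y axis) for each gene, with dark bars for the 28 genes called for batch; all bars but that of Kif23 lie above 0.

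Other measures moved with batch too. The summed level of 7 LSK markers came mostly from Kit, Cd34 and Flt3. Its median was 1508 CPM in batch 1, 1710 CPM in batch 2 and 1218 CPM in batch 3. The ranges were 1312 to 1911, 1244 to 2392 and 931 to 1460 CPM. The summed erythroid markers had medians of 3130, 2079 and 1560 CPM in batches 1, 2 and 3, the 4 macrophage markers 372, 118 and 153 CPM, and the 6 neutrophil markers 69.3, 49.9 and 33.1 CPM. The 4 B cell markers had medians of 142, 126 and 82.2 CPM and the 4 T cell markers 16, 10.2 and 7.70 CPM. Ly6g was the only one of these markers at 0 in most libraries. Whether these cells had a part in the batch difference of the mitosis genes was not tested.

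Further genes of the same pathway, taken from lists, were counted beside the members. Of 51 other mitosis genes 1 was called in females, beside 5.42% of all tested genes, and it was called higher. Cep55, which recruits the abscission machinery to the midbody, averaged 44.1 ± 5.56 CPM in female Western-diet and 26.1 ± 9.61 CPM in female control pups (SD, n = 6 each), a log2 fold change of 0.83 ± 0.19 (SE, adjusted p = 0.00915 in edgeR). Without female control libraries 5 and 6 it was 0.54 (edgeR adjusted p = 0.214), and Cep55 was not called. Its mean log2 CPM in batch 3 minus that in batch 1 was -0.32. The median log2 fold change of the 51 genes was -0.07 in females and -0.08 in males, where none was called. For batch 24 of the 51 were called, beside 24.2% of all tested genes, and 10 without female control libraries 5 and 6, beside 14.6%. A higher mean in batch 3 than in batch 1 was found for 48 of the 51.

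Of 15 condensin and cohesin genes, whose rings shape and hold the chromatids, 1 was called in females, beside 5.42% of all tested genes. It was Pds5a, a regulator of cohesin, at a log2 fold change of 0.52 ± 0.14 (SE, adjusted p = 0.0363 in edgeR). Pds5a was at 0.57 (edgeR adjusted p = 0.156) without female control libraries 5 and 6. None of 17 APC/C subunits was called for diet in either sex, and none of 13 genes of mitotic control, which are checkpoint kinases, CDK inhibitors, Wee1 kinases and the PP2A-B55 branch. Of 16 genes listed for the MuvB complexes, B-Myb, FoxM1 and NF-Y, 2 were called lower in females. Of all tested genes 5.42% were called in females and 3.22% were called lower, and a list of 16 genes is short. Tfdp2, a dimer partner of E2F factors, had a log2 fold change of -0.46 ± 0.13 (SE, adjusted p = 0.0406 in edgeR), and Nfyc, a subunit of NF-Y, had -0.44 ± 0.13 (SE, adjusted p = 0.0408). Neither was called without female control libraries 5 and 6, where Tfdp2 was at -0.21 (edgeR adjusted p = 0.494) and Nfyc at -0.37 (adjusted p = 0.302). Neither the 16 genes nor the members were called in males.

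The step before G2 gave values of its own. In females 3.22% of all tested genes were called lower and 5.42% in either direction. Of 48 G1/S and replication genes 3 were called lower in females, a share of 6.25%. They were the origin licensing factor Cdc6 at -0.57 ± 0.14 (SE, adjusted p = 0.0136 in edgeR), the transcription factor E2f2 at -0.78 ± 0.20 (SE, adjusted p = 0.0210) and the repressor E2f8 at -0.54 ± 0.15 (SE, adjusted p = 0.0337). None of the 48 was called in females without female control libraries 5 and 6, beside 0.763% of all tested genes. Cdc6 was then at -0.42 (edgeR adjusted p = 0.256), E2f2 at -0.50 (adjusted p = 0.302) and E2f8 at -0.39 (adjusted p = 0.347). In males none of the 48 was called and 45 were negative, with a median of -0.19, where the median of the G2/M and mitosis genes was -0.03. Averaged over the sexes 7 of the 48 G1/S genes were called lower. Of all 19616 tested genes 5.70% were called in either direction, and 689 genes were called lower. Without female control libraries 5 and 6, 1 of the 48 was called, beside 2.22% of all tested genes in either direction. For batch 19 of the 48 G1/S genes were called, beside 24.2% of all tested genes, and 7 without that pair of libraries, beside 14.6%. The median difference of the G1/S genes between batches 3 and 1 was 0.13. Of 10 mature erythroid genes 5 were called lower in females, beside 3.22% of all tested genes called lower. Without female control libraries 5 and 6, 3 of the 10 were called, beside 0.763% of all tested genes in either direction. Averaged over the sexes 8 of the 10 were called, beside 5.70% of all tested genes, and 8 without that pair, beside 2.22%.

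Some member counts are uncertain because overlapping genes share exon bases and the kit does not mark strand. The share was largest for Kif20a, which overlaps Cdc23 over 29.3% of its exon bases, for Ube2c with Tnnc2 (22.8%) and for Kif4 with Pdzd11 (15.1%), all on opposite strands. Copies of members were little counted: Ccnb1-ps had 23 to 68 counts and Cks1brt, a copy of Cks1b, 21 to 53 counts per library.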

How the data were processed

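RNA of sorted LSK cells was sequenced in 24 libraries after low-input polyA library preparation from RNA with an integrity number above 8.0, per the labels' protocols. The deposited values are unnormalized read counts of genes. The submitters' processing notes name cutadapt, FastQC, HTSeq, STAR and DESeq2 and the mouse build GRCm39. Their versions, and the annotation used, were not given in the sources. Closing lines that name no gene held 31.0 to 39.3% of each total and were left out. Of the 55414 identifiers 52081 matched a symbol in an annotation of GRCm38, used for names, transcript lengths and exon overlaps only.

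Counts were tested in edgeR 4.0.16 (R 4.3.3) with filterByExpr, TMM (factors 0.932 to 1.05) and 1 robust quasi-likelihood model of all 24 libraries, with terms for group and batch. P-values, two-sided, were adjusted by Benjamini-Hochberg over 19616 genes within each comparison and called under 0.05. On counts simulated for diet in females with 19616 genes, 16% of genes changed 1.5-fold and 52% of those changed 2-fold were recovered, with 3 false calls. These shares are not specific to the members and do not give the recovery for them. The members had a median mean level of 149 CPM, against 7.56 CPM over all tested genes. Their median SD of log2 CPM was 0.249, against 0.433. Alternatives were DESeq2 1.42.0, its size factors in edgeR, limma-voom (limma 3.58.1), other filters, leaving out the batch term, blocking on the replicate number, fitting only the groups compared, and omitting batches or libraries.

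The genes given in full were, for each diet comparison, the called members or the 5 with the smallest p, for batch the 3 with the smallest p, for the others the 1 with the smallest p, the highest per kilobase in each role and any on chromosome X. Plk1, Prc1, Kif20b, Kif23 and others outside this rule were named for their values. The members, lists and alternatives were chosen with earlier results of these data known. The fits within single batches, the alternatives for the genes of the comparison lists, and the values by role and for members outside the rule without female control libraries 5 and 6, were added after seeing the data. Promoter sequences are RefSeq's, with no window used for Aurkb, Ccna2, Cdc25c, Cdca2, Incenp, Kif20a, Smc4 and Tpx2.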

Additional observations from a re-analysis of the deposited data

Results flagged for a closer look

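For 19 genes given in full and the library median over the members, each group of 6 libraries was examined for a library at the end of the range whose gap to the next one was too large a part of the whole range by Dixon's criterion at 95% confidence. Of 80 such sets 5 passed, where chance gives about 1 in 20, or 4.0. In female Western-diet library 6 Nek2 was at 29.4 CPM, below the next lowest library of the group at 57.2 CPM. In that library Ccnb1 was at 353 CPM, above the next highest at 259 CPM, and Kif4 was at 76.9 CPM, above the next highest at 57.9 CPM. In male control library 1 Incenp was at 69.0 CPM, with the next lowest at 147.8 CPM, and Top2a was at 866.8 CPM, with the next highest at 655.8 CPM.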

How the results depend on the processing

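In females the count of members called for diet, 1 as reported, was 2 with no filter, beside 2023 of all 37858 genes tested. It was 3 with the stricter filter (CPM of at least 1 in 6 libraries), beside 1190 of 14795 genes. It was also 3 in DESeq2, beside 1805 of 19616, and when batch 1 was left out, beside 1839 of 19657. It was 0 when the batch term was dropped (beside 404 of 19616) and with only the groups compared (358 of 18255). It was also 0 with batch 2 (297 of 19564) or batch 3 (146 of 19880) left out, or without female control replicates 5 and 6 (154 of 20172). It ran from 0 to 4 when single libraries were left out: 0 without female control 1, 3, 5 or 6, female Western-diet 3 or 5, or male Western-diet 5, and 2 to 4 without female control 2 or 4, female Western-diet 2 or 6, male control 1 or 4, or male Western-diet 2, 4 or 6. Nek2 lost its call under 13 of 36 alternatives, with adjusted p from 0.00117 to 0.384 over all of them. Averaged over the sexes the count, 0 as reported, was 2 with DESeq2 size factors (beside 1154 of 19616 genes tested) and 1 with no filter (1693 of 37858). It was 2 with the stricter filter (1187 of 14795), 3 in DESeq2 (1784 of 19616) and 3 in limma-voom (1505 of 19616). It was 0 to 4 with single libraries left out: 1 without female Western-diet 1 or 6, male Western-diet 1 or 2, or male control 1 or 3, and 2 to 4 without female Western-diet 2, female control 2 or 4, male Western-diet 4, or male control 2 or 4. Between the sexes in controls it was 0 as reported and 3 with no filter, beside 1296 of 37858 genes tested. It was 1 in DESeq2 (276 of 19616), 2 in limma-voom (135 of 19616) and 1 with only the groups compared (111 of 18365). For batch it was 28, with 29 under DESeq2 size factors, beside 4825 of 19616 genes tested, and 24 with no filter, beside 5322 of 37858. It was 30 with the stricter filter (4464 of 14795), 33 in DESeq2 (5899 of 19616) and 34 in limma-voom (6477 of 19616). It was 18 without female control replicates 5 and 6 (2946 of 20172) and 23 to 32 with single libraries left out. In males, for the interaction and between the sexes in Western-diet pups, the count was 0 under all alternatives run. The cause of these changes was not tested. The median over members ranged from -0.18 to -0.07 for diet in females and from -0.13 to 0.01 in males. It changed sign in males without male control 1 (0.01), for the interaction with batch 2 left out (-0.0022) and without female control replicates 5 and 6 (-0.0058), and between the sexes in Western-diet pups with batch 3 left out (0.02). Of the list genes, examined after seeing the data, Cep55 and Cdc6 lost their calls in females under 4 of 36 alternatives each, E2f2 under 10, E2f8 under 11, Tfdp2 under 12, Nfyc under 14 and Pds5a under 19. With the replicate number as a block, the count in females was 0, that is, Nek2 was not called (adjusted p = 0.068), and no member was called in the other comparisons fitted. Of 36 pairs of same-numbered libraries 1 correlated above 0.1 after group and batch were removed, with values from -0.43 to 0.17. Taking out batch means itself pushes libraries of the same batch toward negative correlation. The correlations therefore cannot decide whether same-numbered libraries share more than a batch. Every member had at least 896 counts in every library. How far depth, spread between libraries and group size set the smallest change that could be called was not tested.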

Other observations

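A few members went against the rest in some libraries, and these values were singled out after they were seen. In female Western-diet library 6 the median over the 48 genes was 0.31 above the genes' own means on the log2 scale, and 42 of 48 genes lay above their mean. In the same library Nek2 was at 29.4 CPM, Ccna2 at 54.4 CPM, Racgap1 at 69.6 CPM and Incenp at 118.2 CPM, each the lowest of the 6 libraries of its group. In male control library 1, Ccna2 at 48.4, Racgap1 at 57.7, Incenp at 69.0 and Plk1 at 93.2 CPM were the lowest of all 24 libraries. Top2a at 866.8, Kif11 at 330.1 and Cks2 at 208.5 CPM were the highest there. In male control library 5, Ccna2 at 60.1, Racgap1 at 97.5 and Incenp at 147.8 CPM were the lowest of the group after library 1. The median over the 48 genes in library 5 was 0.16, with 38 genes above their mean. In female Western-diet library 5, with a median of 0.12, Incenp at 126.5 and Racgap1 at 104.5 CPM were the lowest after library 6. Ccna2, at 102.4 CPM, was not low there. In female control libraries 5 and 6 Ccna2 reached 219 and 180 CPM, above every other library, and Incenp and Racgap1 were not low in either of them.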
